A study of Mus musculus with 8 samples.

Results

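Endothelial cells line blood and lymphatic vessels and are held together by a cadherin junction of their own. Their receptors read signals from pericytes, from the blood and from low oxygen, chiefly through the angiopoietin and TIE system, the ALK1 and endoglin complex and receptors for sphingosine phosphate and apelin. Transcription factors of the ETS, SOX and GATA families and the blood and vessel factors Tal1 and Lyl1 set this program during development. In a growing tumor, new vessels sprout from those of the host, and Angpt2, a context-dependent antagonist of the TIE2 receptor, is a known mark of remodelled vessels.

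The 39 endothelial genes described here are a list of junction, receptor and transcription factor genes, taken by symbol out of 49671 genes in the count table. VEGF receptors are not among them. The rule used no measured value, and all 39 were found in the table with at least 1 count in every library. They were read in RNA of 8 mouse tumors from animals of the genotype HprtCre; Ewsr1-loxP; Atf1-loxP, in which Cre encoded at the Hprt locus can join Ewsr1 and Atf1, the fusion that characterises human clear cell sarcoma. The labels call the tumors 1, 2L, 2R, 3, 4a, 4b, 5 and 6, form a single untreated group without normal tissue, and state neither age nor strain nor whether same-number tumors come from 1 animal. Tumors were snap frozen whole at morbidity from the primary tumor, and vessels, infiltrating cells and adjacent tissue were sequenced together with the tumor cells.

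Library totals ran from 4817902 counts in tumor 3 to 19682149 in 2L. Tumor 3 stood apart, with 23.6% of its counts from nuclear protein-coding genes against 57.4% to 93.9% in the others, and its scaling factor was 0.394. Levels are given as counts per 1000000 (CPM) scaled by trimmed means of M values (TMM), a factor that raises every gene of tumor 3 by 1.34 on the log2 scale relative to the unscaled library. Tumor 2L, and less so tumor 3, held skeletal muscle RNA: the summed level of 5 muscle genes was 19548 CPM in 2L, 6456 in 3 and at most 108 in the other 6. With TMM, 9 of the 39 endothelial genes were highest in tumor 3, namely Tie1, Plvap, Sox17, Sox18, Aplnr, Podxl, Ushbp1, She and Rasip1, and without a scaling factor 0 were. The share of all genes kept that were highest in tumor 3 was not computed, so this count is no trait of endothelial genes. In bulk tumors, fewer endothelial cells and less RNA per cell cannot be told apart.

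Of the 39 members, 34 passed the filter on low counts. The exceptions were Angpt1, Lyl1, Gata2, Lyve1 and Prox1, each below 0.920 CPM unscaled, which is 10 counts at the median library size, in at least 1 tumor, and they are described without a test. The members that passed spanned a median of 3.001 on the log2 scale between the highest and the lowest tumor, against 1.54 over all 11505 genes kept. In 9 of these 34 members 1 tumor stood apart from the other 7 by Dixon's criterion, a share near the 22.6% of all genes kept. Without a scaling factor the median spans were 3.10 and 2.36, so the gap between them depends on the scaling. The median SD of log2 CPM over the 8 tumors was 1.06 for these members and 0.51 for all genes kept. Per kilobase of exon, the median member that passed lay at the 50.6th percentile of the genes kept, with Egfl7 highest of all 39 at 30.3 CPM per kb and Gata2 lowest at 0.689.

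**Figure D1:**
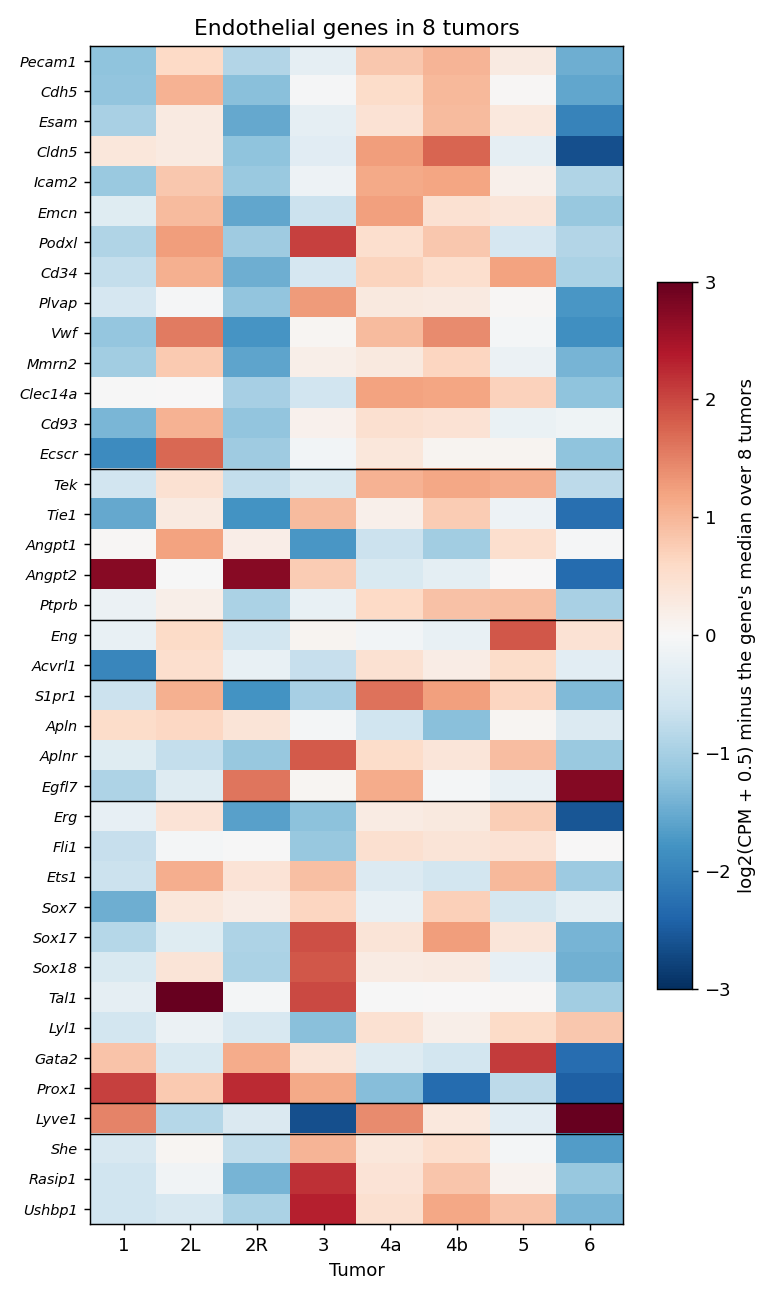
Level of each of the 39 endothelial genes in the 8 tumors, as log2(CPM + 0.5) minus the median of that gene over the tumors, with red above and blue below the median. Lines separate junction and adhesion, angiopoietin and TIE, ALK1, lipid and apelin signaling with Egfl7, transcription factor, lymphatic and cytoplasmic genes. Most rows are blue in tumors 1, 2R and 6, whereas Angpt2 and Prox1 are red in 1 and 2R, Egfl7 and Lyve1 are red in 6, and Tal1 is darkest in 2L.

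Taken as a sum, the 14 junction and adhesion genes were high in 2L, 4a and 4b and low in 1, 2R and 6. Their summed level was 1108 CPM in 2L, 1018 in 4b and 871 in 4a, and 262, 214 and 240 CPM in 1, 2R and 6. Cdh5, which encodes the vascular endothelial cadherin of these junctions (ENSMUSG00000031871, mm10 chromosome 8, 104101625 to 104144511), stood at 126 CPM in tumor 2L, 119 in 4b, 89.4 in 4a, 62.1 in 5, 59.7 in 3, 26.5 in 1, 25.2 in 2R and 20.5 in 6. Tumors 2L and 4b were highest, and the value of 6, the lowest, rested on 504 counts. Pecam1, an adhesion receptor at the same junctions, stood at 166 CPM in tumor 4b, 143 in 4a, 123 in 2L, 98.8 in 5, 67.6 in 3, 44.2 in 2R, 35.3 in 1 and 29.1 in 6. Its order differed in that 4b and 4a exceeded 2L.

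Most other members of this group were high in the same tumors. Vwf, the clotting glycoprotein stored by endothelial cells, ran from 31.1 CPM in 6 through a median of 112 to 332 in 2L, with 302 in 4b. Cd93, a lectin-like receptor of endothelial cells and some myeloid cells, ranged from 36.5 CPM in 1 to 195 in 2L with a median of 95.1, and in 6, at 86.3 CPM, it lay near that median. Cd34, a sialomucin shared with blood progenitors and some fibroblasts, ran from 16.97 in 2R to 111 CPM in 5 with a median of 50.6. Mmrn2, a matrix ligand of Clec14a and Cd93, ran from 5.92 in 2R to 32.6 CPM in 2L with a median of 18.97. The tight junction gene Cldn5 ran from 1.14 CPM in 6 to 33.4 in 4b and had a median of 9.83. In 2L it was 11.8 CPM, below the 12.3 in 1. Esam, Icam2, Emcn and Clec14a, all surface proteins of endothelial cells, had medians of 19.7, 3.65, 12.4 and 8.20 CPM, with highest values of 37.7 in 4b, 8.84 in 4b, 28.9 in 4a and 19.7 in 4a. Their lowest values were 4.43 in 6, 1.40 in 2R, 3.74 in 2R and 3.25 CPM in 6. Clec14a was not high in 2L, at 8.23 CPM against 8.17 in 1.

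Plvap and Podxl departed from this order in that they were highest in tumor 3 with TMM. Ecscr, a surface protein of endothelial cells, was also low in 1, 2R and 6, at 2.66, 5.14 and 4.55 CPM. It reached 38.4 CPM in 2L against at most 14.4 in the other 7. Plvap, which forms the diaphragms of fenestrated endothelium, stood at 72.97 CPM in tumor 3, 36.6 in 4a, 35.97 in 4b, 30.6 in 5, 28.8 in 2L, 20.8 in 1, 12.8 in 2R and 8.54 in 6. Podxl, a sialomucin of the luminal surface, reached 99.1 CPM in 3 and 57.2 in 2L, with a median of 25.01 and a lowest value of 10.9 in 2R.

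**Figure D2:**
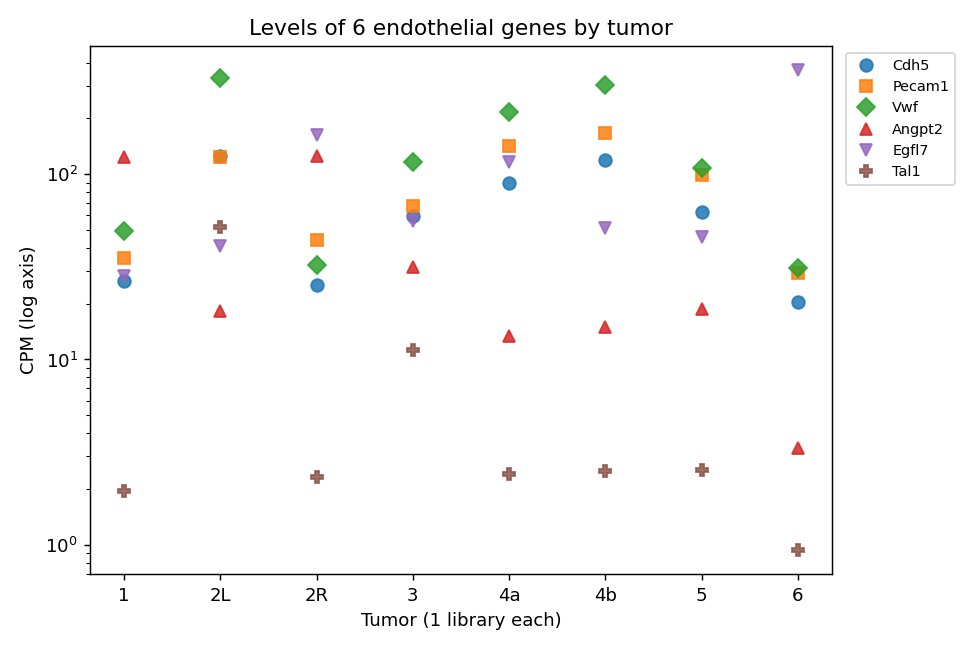
CPM on a log axis for Cdh5, Pecam1, Vwf, Angpt2, Egfl7 and Tal1 in each tumor, 1 library per point. Cdh5, Pecam1 and Vwf are lowest in 1, 2R and 6, Angpt2 reaches 124 CPM in 1 and 125 in 2R, Egfl7 reaches 365 CPM in 6, and Tal1 reaches 52.0 CPM in 2L.

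Tumor 2L exceeded 2R in 31 of the 34 members that passed, where 47.5% of all genes kept were higher in 2L. The exceptions were Angpt2, Egfl7 and Fli1. The median absolute log2 difference between 2L and 2R was 1.52 over these members and 0.41 over all genes kept. Vwf differed by 3.36, S1pr1 by 2.91, Ecscr by 2.87 and Tal1 by 4.40. Between 4a and 4b the members differed by a median of 0.26, against 0.28 for all genes kept, and 14 of 34 were higher in 4a. Each of these pairs is 1 library against 1 and has no test. The muscle RNA of 2L and its mitochondrial ribosomal RNA share of 0.877%, against 24.7% in 2R, moved with the first difference, and their part in it was not tested.

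Tek and Tie1 encode the receptor TIE2 and its partner TIE1, and Ptprb the phosphatase that restrains them in endothelial cells. Tek stood at 17.5 CPM in tumor 4b, 16.5 in 5, 15.98 in 4a, 10.6 in 2L, 5.33 in 3, 4.88 in 1, 4.36 in 2R and 4.19 in 6. It was higher in 4a, 4b and 5, and in 1, 2R, 3 and 6 it lay close together at 4.19 to 5.33 CPM. Tie1 stood at 55.9 CPM in tumor 3, 49.1 in 4b, 34.7 in 2L, 32.01 in 4a, 26.01 in 5, 9.59 in 1, 7.94 in 2R and 5.61 in 6. Ptprb ran from 25.1 CPM in 6 to 92.2 in 5 with a median of 49.8, and was 91.9 in 4b.

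The ligands were highest in other tumors than the receptors. Angpt2 (ENSMUSG00000031465, mm10 chromosome 8, 18690263 to 18741562), released by activated endothelial cells, stood at 125 CPM in tumor 2R, 124 in 1, 31.4 in 3, 18.6 in 5, 18.2 in 2L, 14.96 in 4b, 13.3 in 4a and 3.33 in 6. Tumors 1 and 2R, low in the junction genes, thus had the highest Angpt2, and tumor 6, also low in those genes, the lowest. Per count of Cdh5 in the same library, a ratio that no scaling factor affects, Angpt2 gave 4.68 counts in 1 (95% interval 4.13 to 5.32) and 4.95 in 2R (4.18 to 5.90), against 0.126 to 0.527 in the other 6. These intervals, exact binomial, cover counting error only. Angpt1, the activating ligand made mainly by pericytes and other mural or stromal cells, stood at 11.4 CPM in tumor 2L, 6.95 in 5, 5.45 in 2R, 4.88 in 1, 4.55 in 6, 2.86 in 4a, 2.04 in 4b and 1.07 in 3. It was highest in 2L and lowest in 3, where 2 counts were read, and the highest tumors of the ligand pair were different ones.

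Eng and Acvrl1 encode endoglin and ALK1, the receptor complex for BMP9 and BMP10. Eng stood at 100.3 CPM in tumor 5, 40.2 in 2L, 36.5 in 6, 28.8 in 3, 25.4 in 4a, 23.1 in 1, 22.97 in 4b and 18.4 in 2R. Tumor 5 thus stood above the range of 18.4 to 40.2 CPM in the others. Per count of Cdh5 it did not stand apart, since Eng gave 1.61 in 5 (95% interval 1.46 to 1.79) and 1.78 in 6 (1.59 to 1.99), against 0.193 to 0.870 in the others. Acvrl1 was not apart in 5, with 22.01 CPM there, 21.6 in 2L, a median of 15.1 and a lowest value of 3.46 in 1. Among the 4 most abundant of 6 genes known to respond to this receptor, Id1 and Id3 were also highest in 5, at 27.6 and 77.6 CPM, and lowest in 6, at 1.14 and 7.40. Smad7 was highest in 5 too, at 31.7 CPM, while Tmem100 was highest in 6, at 40.2 CPM. Fibroblasts, pericytes and macrophages can also express Eng. The summed level of 11 pericyte and smooth muscle genes was 1149 CPM in 5, second to 1293 in 2L, and its part in the Eng level was not tested.

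S1pr1, the receptor through which sphingosine phosphate stabilises vessels, stood at 116 CPM in 4a, 87.1 in 4b and 78.3 in 2L, with a lowest value of 10.3 in 2R and a median of 40.7. Apln, the ligand apelin produced by sprouting tip cells, stood at 7.99 CPM in tumor 2L, 7.55 in 1, 6.70 in 2R, 5.27 in 5, 4.79 in 3, 3.66 in 6, 3.15 in 4a and 1.81 in 4b. Its receptor Aplnr stood at 30.4 CPM in tumor 3, 16.1 in 5, 12.2 in 4a, 10.7 in 4b, 6.22 in 1, 4.78 in 2L, 3.54 in 6 and 3.43 in 2R. With TMM the tumor highest in Aplnr was thus not the one highest in Apln. Of 7 further genes of tip cells and sprouts, Unc5b, Nid2, Cxcr4 and Dll4 were the most abundant, with means of 54.9, 48.9, 29.05 and 16.3 CPM. Cxcr4 was highest in 2L, at 76.03 CPM, and Dll4 in 4b, at 30.2 CPM.

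Egfl7, a secreted matrix protein of the vessel wall (ENSMUSG00000026921, mm10 chromosome 2, 26580014 to 26593120), was highest in 6, as were only Lyl1 and Lyve1 among the other members. It stood at 365 CPM in tumor 6, 163 in 2R, 116 in 4a, 55.9 in 3, 51.4 in 4b, 45.7 in 5, 41.2 in 2L and 28.1 in 1. With TMM, tumors 6 and 2R, where Cdh5 was lowest, had the highest Egfl7. Tumor 1, whose Cdh5 level of 26.5 CPM was near the 25.2 of 2R, had the lowest Egfl7. There were 17.8 counts of Egfl7 per count of Cdh5 in 6 (95% interval 16.3 to 19.5), 6.47 in 2R (5.48 to 7.68) and between 0.328 and 1.30 in the other 6. Egfl7 shares 64 exon bases with Agpat2 on the opposite strand, and the counting's strand handling is not stated. Agpat2 was also highest in 6, at 56.2 CPM, with 25.7 in 2R, and its part in the Egfl7 level was not tested. The VEGF receptor Kdr was highest in the same tumors, at 1430.3 CPM in 2R and 833 in 6. The VEGF receptors Flt1 and Flt4 were not, being highest in 2L, at 74.8 and 31.3 CPM, and lowest in 6, at 11.9 and 2.80.

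**Figure D3:**
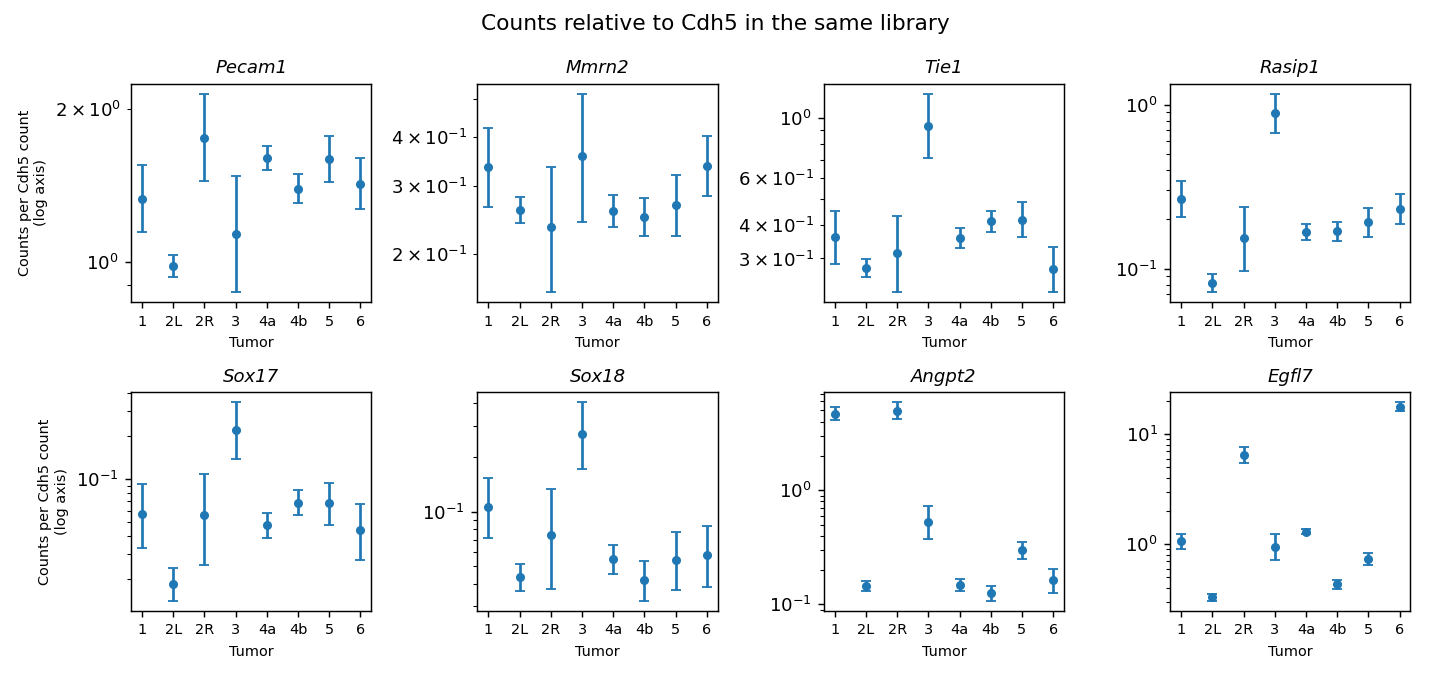
Counts of 8 members per count of Cdh5 in the same library, on log axes that differ between panels, with exact binomial 95% intervals for counting error. Pecam1 and Mmrn2 keep within 1.79-fold and 1.52-fold ranges, Tie1, Rasip1, Sox17 and Sox18 are highest in 3, Angpt2 is high in 1 and 2R, and Egfl7 in 6 and 2R.

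Promoter sequence is shown for members that differed in their Pearson r with Cdh5, which is described below. Emcn and Tie1 had a positive r, and Egfl7 had r = -0.35 (exact permutation p = 0.514). Without a scaling factor the r of Egfl7 was 0.10. Sequences are the 250 bases before a start site, from RefSeq on GRCm38.p6 (mm10), printed 5′ to 3′ on the gene's strand, and 17 of the 39 members matched an entry. Capitals mark CAGGAAG or its reverse complement CTTCCTG, a sequence bound by ETS factors such as Erg, Fli1 and Ets1.
Emcn, chr3:137340828-137341077, plus strand: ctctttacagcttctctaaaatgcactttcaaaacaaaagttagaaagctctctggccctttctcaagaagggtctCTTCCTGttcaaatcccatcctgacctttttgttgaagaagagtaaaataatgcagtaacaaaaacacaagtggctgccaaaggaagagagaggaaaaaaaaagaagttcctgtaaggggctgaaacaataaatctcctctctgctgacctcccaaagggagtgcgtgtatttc
Tie1, chr4:118489850-118490099, minus strand: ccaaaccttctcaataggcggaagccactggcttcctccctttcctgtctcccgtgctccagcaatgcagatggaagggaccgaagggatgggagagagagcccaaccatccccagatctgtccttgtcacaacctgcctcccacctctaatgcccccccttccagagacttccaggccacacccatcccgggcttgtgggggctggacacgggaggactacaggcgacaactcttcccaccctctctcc
Egfl7, chr2:26580833-26581082, plus strand: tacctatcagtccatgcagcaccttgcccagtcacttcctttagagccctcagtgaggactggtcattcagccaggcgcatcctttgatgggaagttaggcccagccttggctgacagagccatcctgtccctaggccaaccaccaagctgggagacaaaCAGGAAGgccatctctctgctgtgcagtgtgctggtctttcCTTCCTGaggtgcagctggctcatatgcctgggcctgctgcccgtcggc
Egfl7, chr2:26583615-26583864, plus strand: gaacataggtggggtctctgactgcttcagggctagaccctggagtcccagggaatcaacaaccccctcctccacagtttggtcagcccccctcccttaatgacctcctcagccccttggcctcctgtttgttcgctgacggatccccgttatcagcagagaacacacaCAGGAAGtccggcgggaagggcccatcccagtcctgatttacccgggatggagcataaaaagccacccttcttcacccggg
The CAGGAAG sequence was present on either strand in 8 of 24 such windows of members (7 of 17 members) and in 10.8% of all 32851 windows in the table. Emcn held 1 match and Tie1 none, while Egfl7 held 2 and 1 in the windows shown and none in a further one. The motif was therefore present both in a member with positive r and in Egfl7. AACAAT, a sequence bound by SOX factors, was found on either strand in 4 of the 24 windows, those of Emcn, Tek, Erg and Ushbp1, and in 9.42% of all windows. AGATAA, bound by GATA factors, was found in 2 of the 24, of Erg and Tal1, and in 9.99% of all. None of these motifs contains another, and a match describes letters only.

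Among ETS factors, Erg, the most restricted to endothelium, ran from 3.29 CPM in 6 to 37.3 in 5 with a median of 22.4. Fli1, shared with blood cells, varied least in this group, from 10.1 in 3 to 32.1 CPM in 4a with a median of 22.8. Ets1, also abundant in lymphocytes, ran from 22.7 in 6 to 105 CPM in 2L, with 96.4 in 5, 92.1 in 3 and a median of 50.9. Erg was thus low in 2R, at 6.85 CPM, and in 6, like the junction genes. In 1, where those genes were also low, Erg was 18.6 CPM, and in 3 it was low, at 9.055 CPM. Fli1 in 2R and 6 lay near its median.

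The SOX factors 7, 17 and 18, which act together in arterial and lymphatic development, were sparse, and Sox17 and Sox18 were highest in tumor 3 with TMM. Sox17 stood at 13.3 CPM in tumor 3, 8.16 in 4b, 4.27 in 4a, 4.21 in 5, 2.31 in 2L, 1.51 in 1, 1.40 in 2R and 0.894 in 6, and Sox18 at 15.98 CPM in tumor 3, 5.45 in 2L, 4.99 in 4b, 4.89 in 4a, 3.37 in 5, 2.84 in 1, 1.87 in 2R and 1.18 in 6. Sox7 was 11.8 CPM in 4b and 11.2 in 3, with a lowest value of 2.22 in 1 and a median of 7.05. Without a scaling factor tumor 3 was highest in neither Sox17 nor Sox18. Per count of Cdh5, Sox17 gave 0.223 in 3 (95% interval 0.139 to 0.347) against 0.0184 to 0.0685 elsewhere, and Sox18 0.268 (0.173 to 0.404) against 0.0419 to 0.107. Sox7 per Cdh5 count was highest in 2R, at 0.327 (0.235 to 0.449), then 0.272 in 6 and 0.188 in 3.

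The cytoplasmic members Rasip1 and She, which act on small GTPase and adaptor signaling in endothelial cells, and Ushbp1 were also highest in 3 with TMM. Rasip1 stood at 52.7 CPM in tumor 3, 20.1 in 4b, 14.99 in 4a, 11.9 in 5, 10.3 in 2L, 7.10 in 1, 4.76 in 6 and 3.89 in 2R. Ushbp1 stood at 30.4 CPM in tumor 3, 13.1 in 4b, 10.5 in 5, 8.03 in 4a, 3.84 in 2L, 3.55 in 1, 2.65 in 2R and 1.87 in 6. She was 12.3 CPM in 3 and ranged from 1.46 in 6 to 8.39 in the other 7. Per count of Cdh5, 10 of 38 members had their highest value in 3 and 7 their lowest. Tumor 6 held the highest value of 8 members and tumors 1 and 2R of 6 each, while 2L held the lowest of 12 and 4b of 10. Cdh5 itself was lowest in 6, 2R and 1 (20.5, 25.2 and 26.5 CPM) and highest in 2L and 4b (126 and 119). The tally for these tumors therefore follows in part from the denominator. The share over all genes was not computed. In 3, Rasip1 gave 0.884 (95% interval 0.668 to 1.17) against 0.0821 to 0.268 elsewhere, Tie1 0.938 (0.711 to 1.24) against 0.274 to 0.419, and Podxl 1.66 (1.31 to 2.12) against 0.264 to 0.613. Muscle RNA was high in 3 as well as in 2L, and its part in these ratios was not tested. Library 3 held 112 counts of Cdh5, which sets the width of these intervals. Rasip1 shares 654 exon bases with Izumo1 on the same strand and Sox17 shares 804 with Gm37587 on the opposite strand, and neither partner exceeded 0.316 CPM in any tumor. Rasip1 also shares 498 of its 3202 exon bases with A030001D20Rik on the opposite strand, which stood at 0.529 to 2.32 CPM, and its part in the Rasip1 level was not tested.

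Tal1, a factor of blood and endothelial progenitors, stood at 52.00 CPM in tumor 2L, 11.2 in 3, 2.53 in 5, 2.49 in 4b, 2.40 in 4a, 2.34 in 2R, 1.95 in 1 and 0.935 in 6. Tumors 2L and 3, which had the most muscle RNA, were highest, and the other 6 did not exceed 2.53 CPM. Lyl1, a close relative of Tal1, did not share this order and stood at 6.06 CPM in tumor 6, 5.05 in 5, 4.60 in 4a, 3.70 in 4b, 2.78 in 2L, 2.18 in 2R, 2.04 in 1 and 1.07 in 3. Gata2, which serves endothelium, blood progenitors and mast cells, stood at 11.6 CPM in tumor 5, 5.61 in 2R, 4.62 in 1, 3.20 in 3, 1.66 in 4a, 1.57 in 2L, 1.44 in 4b and 0.0813 in 6. It was highest in 5 and second in 2R, and the mast cell genes Mcpt4 and Cpa3 were highest in the same tumors, at 11.1 and 6.53 CPM in 5 and 2.80 and 3.11 in 2R. All 7 mast cell genes summed to 56.3 CPM in 5, 16.8 in 2R and 63.6 in 6, where Kit alone made up 62.9, and their part in the Gata2 level was not tested. Of 7 megakaryocyte and platelet genes none passed the filter, and their sum was 43.4 CPM in 5 and 43.9 in 6, of which Pf4 made up 26.3 and 40.4.

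The lymphatic members disagreed with each other. Prox1, the factor that specifies lymphatic endothelium, stood at 16.3 CPM in tumor 2R, 14.3 in 1, 7.46 in 3, 5.72 in 2L, 1.58 in 5, 0.994 in 4a, 0.227 in 4b and 0.163 in 6, so that the tumors highest in it, 2R and 1, were those highest in Angpt2. Lyve1, a hyaluronan receptor of lymphatic endothelium and of some tissue macrophages, stood at 55.1 CPM in tumor 6, 17.4 in 1, 16.6 in 4a, 7.41 in 4b, 4.63 in 5, 4.20 in 2R, 3.02 in 2L and 0.533 in 3. Prox1 was lowest in 6, where Lyve1 was highest. Of 6 further lymphatic genes, Ccl21a had no count in any library and Mmrn1 did not exceed 1.05 CPM, both named after their values were seen. Reln was 99.6 CPM in 1, 91.1 in 2R and 0.163 in 6, and Nrp2 was 108 in 1, 102 in 2R and 36.9 in 6. Pdpn was 429 CPM in 2R, but also 244 in 6 and 221 in 4a. Flt4 was highest in 2L, at 31.3 CPM, with 9.23 in 1 and 6.23 in 2R. Macrophage genes were highest in 6, where 10 of them summed to 3999.5 CPM against 308 to 1858 in the others, Mrc1 alone being 1231 CPM. Their part in the Lyve1 level was not tested.

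The labels offer 1 structure that can be tested, the title numbers, 2 of which hold 2 libraries each. With edgeR's quasi-likelihood test over the 6 numbers, 0 of 34 members had an adjusted p under 0.05, as did 0 of all 11505 genes (0.0%). At an unadjusted p under 0.05 there were 12 of 34 members, against 24.5% of all genes, and the spread rested on 2 residual degrees of freedom. Aplnr and Ushbp1 came first, with adjusted p of 0.109 and 0.112 in edgeR. DESeq2's likelihood ratio test called 18 of 34 members, against 20.7% of all genes. Leaving out 2L, or leaving out 2R, edgeR called 32 of 34 members, where calls rose over the whole table to 38.7% and 39.3% of all genes. With no filter it called 31 of 39 members, against 20.6% of all genes. Since the labels do not say that any tumor came from a separate animal, these p-values measure only the spread between libraries.

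Which members varied with Cdh5 was asked over the 6 numbers, with same-number libraries averaged on the log2 scale. Of 33 other members that passed the filter, 31 had a positive Pearson r, where 50.2% of all 11504 genes did, and the median r was 0.72 against 0.00306. This contrast depends on the scaling: without a scaling factor 33 of 33 members and 86.1% of all genes had a positive r, and the median r was 0.76 against 0.40. In the two-sided exact permutation test over 720 orders, 9 of 33 members had an unadjusted p under 0.05 with positive r and 0 with negative r, against 1.83% and 1.43% of all genes. After adjustment over all genes, 0 members and 0 of 11504 genes (0.0%) passed, and the smallest adjusted p of any gene was 0.799. The smallest unadjusted p of any gene was 0.00139 in this permutation test, which is the least that 720 orders allow. Over 11504 genes an adjusted p under 0.05 would need many genes tied at that value. The adjustment could therefore hardly be passed and says little of the strength of the relations.

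The members closest to Cdh5 were Vwf, Pecam1, Mmrn2, Icam2 and Esam. Vwf gave r = 0.991 (exact permutation p = 0.00417) and rho = 0.943 (exact permutation p = 0.0167). Pecam1 gave r = 0.982 (exact permutation p = 0.00278) and Mmrn2 r = 0.970 (exact permutation p = 0.00278), each with rho = 0.943 (exact permutation p = 0.0167). Icam2 gave r = 0.942 (exact permutation p = 0.00972) and Esam r = 0.939 (exact permutation p = 0.00556), with rho of 0.943 and 1 (exact permutation p = 0.0167 and 0.00278). Every one of these had an adjusted p of 1 for r and 0.913 for rho. Without numbers 1 and 6, the farthest from the median Cdh5 level, r was 0.991 for Vwf, 0.932 for Pecam1, 0.817 for Mmrn2, 0.988 for Icam2 and 0.836 for Esam. Only 4 numbers then remain, and Cdh5 was nearly equal in 3 of them (mean log2 CPM of 5.82 in number 2, 5.90 in 3 and 5.96 in 5, against 6.69 in 4), so these r set number 4 against the other 3 and say little of stability.

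Tie1, Ecscr, Emcn and She followed with r of 0.882, 0.862, 0.807 and 0.800, at unadjusted exact permutation p of 0.0319, 0.0486, 0.0472 and 0.0444 and adjusted p of 1 each. Their rho were 0.829, 0.600, 0.829 and 0.829, at exact permutation p of 0.0583, 0.242, 0.0583 and 0.0583. Without numbers 1 and 6 the r of Tie1, Ecscr and She were 0.359, 0.209 and 0.226, and Emcn gave 0.823. As above, r over the 4 numbers left sets number 4 against the other 3 and says little of stability. Without tumor 3, over 7 libraries, Tie1 gave r = 0.981, Ecscr 0.885, Emcn 0.892 and She 0.877. Egfl7 and Apln had negative r, -0.35 and -0.36 (exact permutation p = 0.514 and 0.469), and Angpt2 had 0.10 (exact permutation p = 0.867), with rho = -0.14 (exact permutation p = 0.803). Without a scaling factor Egfl7 and Apln turned positive, at 0.10 and 0.025. The labels name no batch within which these could be recomputed. Without tumor 3, over 7 libraries, 23 of 33 members had an unadjusted exact permutation p under 0.05 with positive r, against 5.44% of all genes. Without 2L, over 7 libraries, 18 of 33 did, against 3.24% of all genes, and without both 19 of 33, against 5.65%. With all 8 libraries as separate samples 19 of 33 did, against 3.36% of all genes.

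**Figure D4:**
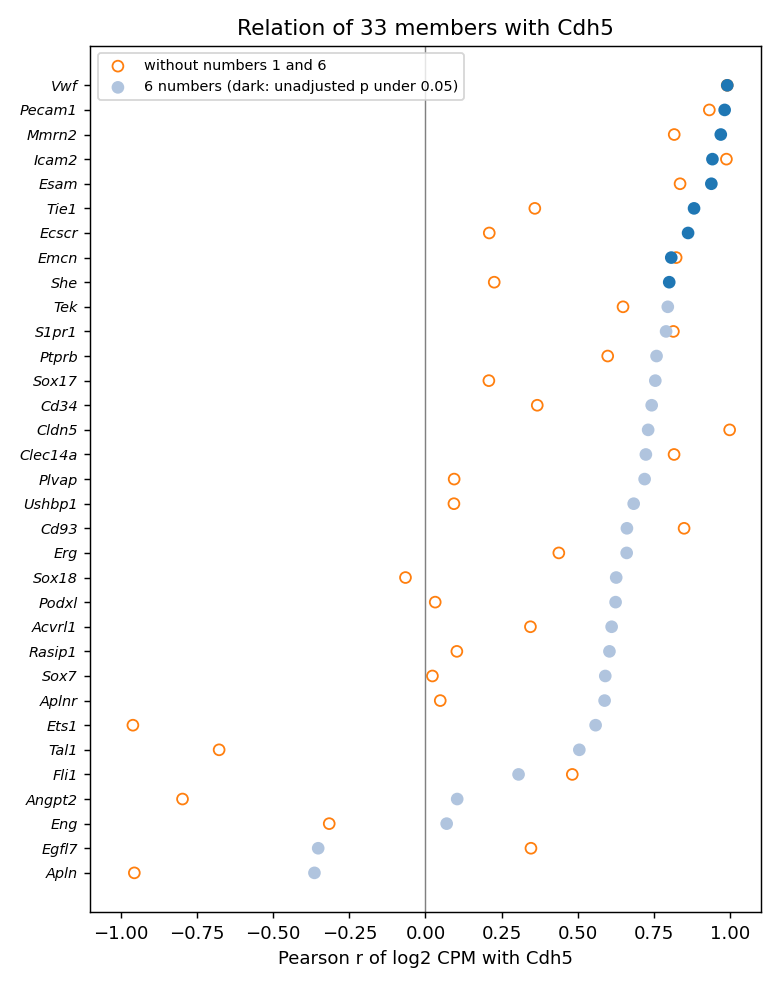
Pearson r of log2 CPM with Cdh5 for 33 members over the 6 title numbers (filled, dark where the unadjusted exact permutation p is under 0.05) and without numbers 1 and 6 (open). The filled points run from -0.36 for Apln to 0.991 for Vwf, and the open points of Ets1, Tal1, Angpt2, Apln, Eng and Sox18 lie below 0.

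Genes of neighbouring programs were read against Cdh5 the same way. Of 25 other endothelial genes that passed the filter, out of 30, 9 had an unadjusted exact permutation p under 0.05 with positive r and 0 with negative r, and the median r was 0.59. Of all 11504 genes, 1.83% had such a p with positive r and 1.43% with negative r. The median r of all genes was 0.00306, and 0.40 without a scaling factor. Nos3, the endothelial nitric oxide synthase, gave r = 0.912 (exact permutation p = 0.00278) and rho = 0.943 (exact permutation p = 0.0167), and was named after these values were seen. Of 11 pericyte and smooth muscle genes 2 did so (Abcc9 and Kcnj8, channel subunits of pericytes, named after their values were seen) with a list median of 0.64, of 6 artery genes 3, and of 4 vein genes 1. Of 9 macrophage genes 0 did so in either direction, 1 had a positive r, and the median was -0.39. Other cell types differed from this. Of 3 lymphocyte genes 0 did so, 3 had a positive r, and the median was 0.62. Of 6 fibroblast genes 0 did so, 5 had a positive r, and the median was 0.21. Of 3 blood progenitor genes 1 did so with positive r, 1 had a positive r, and the median was -0.15. None of these genes passed the adjustment over all genes, which 720 orders hardly allow, and no list was tested as a whole.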

How the data were processed

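Ribosome-depleted total RNA of 8 tumors was sequenced. The authors deposited 1 table of raw counts for 49671 Ensembl genes. The submitters' processing notes name mm10 as the build and RSEM, featureCounts, STAR 2.7.5a and cutadapt as tools. The role of each and the use of strand in counting are not given in the sources used here. Symbols came from GENCODE M21, which named 49412 identifiers.

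Library totals of 4817902 to 19682149 counts set the precision. R 4.3.3 and edgeR 4.0.16 were used. The filter (filterByExpr, 1 group) kept 11505 genes. CPM is the count divided by the kept total times the TMM factor, and log2 CPM used a prior count of 2. A count of 0 allows 3 counts, which is 1.60 CPM in tumor 3 and at most 0.467 elsewhere, by counting error only.

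Differences among title numbers were fitted by edgeR's quasi-likelihood F-test, with DESeq2 1.42.0 as an alternative, and relations with Cdh5 by exact permutation, on all genes kept, adjusted after Benjamini and Hochberg and tested on simulated data. Counts per Cdh5 count were added after values had been seen. Alternatives were other scalings, filters, samples and reference genes. All members may be named, and from each other list the 4 genes of highest mean CPM. Members and lists were chosen with earlier results of these data known. The result of 1 further marker list is not reported here.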

Additional observations from a re-analysis of the deposited data

Results flagged for a closer look

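In 10 of the 39 members the highest tumor stood apart from the other 7, its gap to the next exceeding, as a share of that gene's range, Dixon's 95% critical value for 8 samples. The rule gives this in about 1 in 20 groups by chance where values are normal. Of all 11505 genes kept, 22.6% had a tumor apart by the same rule, against 9 of the 34 members that passed the filter, so the members' share lies near that of all genes. In tumor 3 the members apart were Plvap at 73.0 CPM (next 36.6), Rasip1 at 52.7 (next 20.1), Aplnr at 30.4 (next 16.1), Ushbp1 at 30.4 (next 13.1) and Sox18 at 15.98 (next 5.45). In tumor 2L they were Tal1 at 52.0 CPM (next 11.2) and Ecscr at 38.4 (next 14.4). In tumor 6 they were Egfl7 at 365 CPM (next 163) and Lyve1 at 55.1 (next 17.4), and in tumor 5 Eng at 100.3 CPM (next 40.2). The 5 genes of tumor 3 did not have their highest value there without a scaling factor.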

How the results depend on the processing

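No paired analysis was possible because the labels give 1 group. The count of members called among the title numbers, 0 with edgeR, was 18 with DESeq2 and 31 with no filter (20.7% and 20.6% of all genes). Leaving out a library gave 0 to 32, with 32 where 2L or 2R was left out, so that the spread came from the pair 4a and 4b alone, and 0 without 3, 4a or 4b. Over all genes kept, edgeR called 0, DESeq2 2383, and edgeR 4457 without 2L, 4548 without 2R and 6260 of 30321 with no filter. The 9 members related to Cdh5 at an unadjusted exact permutation p under 0.05 (1.83% of all genes) became 19 with 8 libraries as separate samples (3.36%), and 18 without 2L (3.24%), 23 without 3 (5.44%) and 19 without both (5.65%), the settings without 2L having been added after the data were seen. These use 6 to 8 libraries in place of 6 numbers, and the same-number libraries may then not be independent. The relation of Angpt2 with Cdh5 turned negative, to -0.14 with Spearman's rho, -0.24 with 8 libraries, -0.25 without 3, -0.22 without 2L and -0.24 without both. Those of Egfl7 and Apln turned positive without a scaling factor, at 0.10 and 0.025, and the cause was not tested. Of 156 alternative values of mean CPM over the 39 members all moved by less than 1 SD of that gene over the 8 tumors. That SD ran from 34.7% of the mean (Fli1) to 184% (Tal1), so the measure is wide and says little of stability. Mean Vwf was 148 CPM with TMM and 172 without a scaling factor, and mean Rasip1 15.7 CPM with TMM and 11.8 without tumor 3. Other filters passed 34 to 39 members, and the median span of a member between tumors was 3.001 to 3.21 on the log2 scale under other scalings and 2.55 without 3. Over all genes that span was 1.54, but 2.36 without a scaling factor. Depth limits the sparse members in tumor 3, where Lyve1 rested on 1 count and Angpt1 on 2.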

Other observations

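Artery, vein and other endothelial genes outside the list were read in the same libraries. Their relations with Cdh5 are given above, and their levels by tumor are described here without a test. The artery genes Sema3g and Cxcl12 parted: Sema3g, a semaphorin of arterial endothelium, was lowest in 1 at 3.37 CPM and highest in 4b at 113, with 66.9 in 4a, whereas Cxcl12, a chemokine also made by stroma, reached 674 CPM in 2R against 297 in 4b. Of the vein genes, the adhesion receptor Selp ran from 1.22 CPM in 6 to 185 in 4a, and Nr2f2, a factor of venous identity, only from 14.2 in 6 to 35.7 in 3 with TMM. Stab1, a scavenger receptor of sinusoidal endothelium and macrophages, was highest in 6 at 572 CPM, the tumor highest in Lyve1 and in macrophage genes. Adgrf5, an adhesion receptor of lung and other endothelium, was 604 CPM in 2L, 571 in 1 and 200.4 in 2R, so that tumor 1, low in Cdh5, was among the highest.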
